A study of Mus musculus with 4 samples.

Results

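The 10 genes for alternative forms of subunits 4, 6a, 6b, 7a and 8 of mouse cytochrome oxidase were followed here, in cardiomyocytes grown from embryonic stem cells. The genes are Cox4i1 and Cox4i2, Cox6a1 and Cox6a2, Cox6b1 and Cox6b2, Cox7a1 and Cox7a2, and Cox8a and Cox8b. They were chosen by symbol, through the RefSeq accession of each probe, and the related gene Cox7a2l was left out. All 10 genes, read by 11 probes, were well above background on all 4 arrays, and they are 10 of the 20726 features tested.

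Total RNA came from cardiomyocytes of the mouse embryonic stem cell line CGR8. One group received a small interfering RNA (siRNA) directed at the receptor tyrosine kinase gene Erbb4 (siErbB4) and the other a scrambled RNA (siScr). Transfection lasted 48 hours in medium with 2% serum. Each group held 2 samples, replicates 1 and 2 by their titles, and each sample was read on its own 1-colour Agilent array. Both groups share the cell line, the medium and the transfection, and whether the cardiomyocytes were purified is not given in the sources used here.

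Groups were taken from the titles and the transfection field, but other labels conflict with them. Both siErbB4 descriptions mention the scrambled RNA, and ErbB5 stands in the source field of siErbB4 replicate 2. The single Erbb4 probe read a processed signal of 15.0 and 2.83 in siErbB4 replicates 2 and 1, against 11.9 and 9.02 in siScr replicates 2 and 1. Only siErbB4 replicate 2 read it well above background, so it does not check the labels. Cardiomyocyte markers were bright, with 13 of 13 tested. Of 10 skeletal muscle markers 4 were tested, Tnni2, Tnnt3, Myh3 and Actn3. Myod1, Myog, Myf5 and Pax7 were well above background on 0 arrays. The 4 arrays lay on 1 slide, with replicate 2 of both groups at positions 1 and 2 and replicate 1 of both at positions 3 and 4, so replicate number and position cannot be told apart. Nothing here says that replicates were separate cultures, so p-values measure the spread between these samples, which may be technical. Precision is limited by having 4 arrays.

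Cytochrome oxidase, complex IV of the mitochondrial respiratory chain, passes electrons from cytochrome c to oxygen and pumps protons. Its catalytic core is encoded by mitochondrial DNA, and nuclear genes supply the surrounding subunits. Cox4i1, Cox6a1, Cox6b1, Cox7a2 and Cox8a encode the forms found in most tissues. Cox6a2, Cox7a1 and Cox8b encode the forms of heart and skeletal muscle, which come to prevail as the heart matures, and Cox7a1 and Cox8b are also made in brown fat. Cox4i2 is the form of lung and is raised by low oxygen, and Cox6b2 is the form of testis.

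The reference promoters of both isoforms of subunits 7a and 8 are shown because the results below turn on the contrast between them, and because both members of each pair have an entry. They run from 250 bases before to 50 after the RefSeq start, on the gene's own strand, and come from RefSeq on GRCm38.p6. Of the 10 genes 7 matched this table. Capitals mark matches to the motifs searched.
Cox7a1, chr7:30183921-30184220, plus strand: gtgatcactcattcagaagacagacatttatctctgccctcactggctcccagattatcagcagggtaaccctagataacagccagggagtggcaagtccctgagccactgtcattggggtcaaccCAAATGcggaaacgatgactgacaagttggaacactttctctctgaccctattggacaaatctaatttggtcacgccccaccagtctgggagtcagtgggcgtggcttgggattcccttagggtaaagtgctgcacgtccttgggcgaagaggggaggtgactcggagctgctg
Cox7a2, chr9:79759804-79760103, minus strand: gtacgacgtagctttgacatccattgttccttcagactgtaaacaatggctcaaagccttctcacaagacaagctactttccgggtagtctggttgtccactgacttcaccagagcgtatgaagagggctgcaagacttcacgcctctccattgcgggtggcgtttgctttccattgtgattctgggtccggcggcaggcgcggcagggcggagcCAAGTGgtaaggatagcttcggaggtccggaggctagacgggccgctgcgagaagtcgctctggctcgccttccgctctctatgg
Cox8b, chr7:140900397-140900696, minus strand: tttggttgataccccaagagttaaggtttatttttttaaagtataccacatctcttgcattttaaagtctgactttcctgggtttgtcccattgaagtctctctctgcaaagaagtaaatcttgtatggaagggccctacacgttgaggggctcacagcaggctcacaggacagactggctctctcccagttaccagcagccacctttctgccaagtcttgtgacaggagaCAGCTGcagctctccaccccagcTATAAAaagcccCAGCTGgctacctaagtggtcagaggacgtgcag
Cox8a, chr19:7217567-7217866, minus strand: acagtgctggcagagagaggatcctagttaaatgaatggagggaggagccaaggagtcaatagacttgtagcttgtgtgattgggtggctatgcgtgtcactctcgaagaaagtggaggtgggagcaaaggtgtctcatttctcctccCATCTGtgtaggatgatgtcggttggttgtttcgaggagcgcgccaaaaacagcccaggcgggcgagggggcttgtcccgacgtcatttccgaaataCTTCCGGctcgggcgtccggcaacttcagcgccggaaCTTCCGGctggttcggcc

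Each motif was searched on both strands of all 32851 promoters of this length. The TATA box, spelled TATAAA, was in 13.6% of them. The general E-box, spelled CANNTG, was in 72.3%, and its muscle form with the letters CAGCTG, which the general motif includes, was in 16.3%. The estrogen-related receptor motif, AAGGTCA, was in 4.72%, the ETS motif, CCGGAAG, in 8.86% and the NRF1 motif, GCATGCGC, in 2.71%. The MEF2 site was in 1.86%. The Cox8b window held CAGCTG with its left end at positions -19 and 17 and the TATA box at position 5, inside the transcribed side, counted from the RefSeq start. The Cox8a window held the ETS motif, reversed on the strand shown, at positions -5 and 33, and an E-box at -102. The windows of Cox7a1 and Cox7a2 each held an E-box, at -124 and at -35, and no other motif searched. The muscle isoforms had fewer CG pairs, 7 in Cox7a1 and 2 in Cox8b, than the ubiquitous ones, 20 in Cox7a2 and 19 in Cox8a, beside a median of 7 over all promoters. These matches are descriptions of sequence, and no binding was measured.

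The clearest pattern in the isoform genes followed the replicate number. The 3 heart and muscle isoforms were 1.86 to 2.09 times as high in the replicate 2 arrays as in the replicate 1 arrays, while the 5 ubiquitous isoforms were 1.1 to 1.31 times as high. Cox6a2 and Cox7a1 rose past the test across all features and Cox8b missed it narrowly. Values below are log2 of the processed signal over the 75th percentile of its array, a scale on which only differences of one gene between arrays are compared. Differences between replicate numbers are replicate 2 minus replicate 1, fitted with limma over both groups, with standard error (SE), 95% interval and Benjamini-Hochberg adjusted p. Each side of that fit holds an siErbB4 and an siScr array, so differences between the groups enter its error.

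Cox6a2 encodes the muscle form of subunit 6a, a small subunit through which adenine nucleotides act on the enzyme. Its values were 5.86 and 5.08 in siErbB4 replicates 2 and 1, against 5.91 and 4.90 in siScr replicates 2 and 1. Both replicate 2 arrays lay above both replicate 1 arrays, by 0.78 within siErbB4 and by 1.01 within siScr. The fitted difference was 0.89 (SE 0.12, interval 0.58 to 1.21, adjusted limma p 0.0322). As processed signal this was 54336 and 31901 in siErbB4 replicates 2 and 1, against 52763 and 29499 in siScr replicates 2 and 1.

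Cox7a1, the muscle form of a subunit at the dimer and supercomplex interface, had a difference of similar size. It stood at 4.10 and 3.22 in siErbB4 replicates 2 and 1, against 3.96 and 2.99 in siScr replicates 2 and 1. The replicate 2 arrays were the higher ones in each group, with differences of 0.88 within siErbB4 and 0.97 within siScr. The fitted difference was 0.93 (SE 0.13, interval 0.57 to 1.28, adjusted limma p 0.0367).

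Cox8b encodes the muscle form of the smallest nuclear subunit and is inactive as a gene in humans. Its values were 0.17 and -0.97 in siErbB4 replicates 2 and 1, against -0.26 and -1.24 in siScr replicates 2 and 1, and the replicate numbers did not overlap. The difference was 1.14 within siErbB4 and 0.99 within siScr. The fitted difference of 1.06 (SE 0.19, interval 0.55 to 1.57) had an adjusted limma p of 0.0570, just outside the threshold of 0.05. It passed with normexp background correction (adjusted limma p 0.0105). It did not pass with quantile (0.0644) or median scaling (0.0625), probe means (0.0572) or the deposited values (0.0575). Without the filter on dim probes its adjusted limma p was 0.188.

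Of all features, 3.25% were higher in replicate 2 by at least as much as Cox6a2, 3.02% by as much as Cox7a1 and 2.23% by as much as Cox8b. Features lower in replicate 2 by as much are not in these shares. Across the 10 isoform genes 2 were called, both higher in replicate 2, beside 5.23% of all features called in either direction 2.89% called higher and 2.34% called lower. An unadjusted p under 0.05 was found for 4 of the 10, Cox6a2, Cox7a1, Cox8b and Cox6b1, beside 23% of all features. The mean was higher in replicate 2 for 9 of the 10, beside 53% of all features. At those 9 the replicate numbers did not overlap, beside 55.5% of all features, of which 29.4% were higher and 26% lower in replicate 2. The median difference of the 10 genes was 0.33, against 0.019 over all features. The calls of Cox6a2 and Cox7a1 ended without siErbB4 replicate 2 (adjusted limma p 0.136 and 0.164), without siScr replicate 1 (0.0631 and 0.0700), without siScr replicate 2 (0.156 and 0.126) and without the filter on dim probes (0.142 and 0.150). Their differences stayed between 0.79 and 1.04 in all alternatives run, and those of Cox8b between 0.85 and 1.27.

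**Figure D1:**
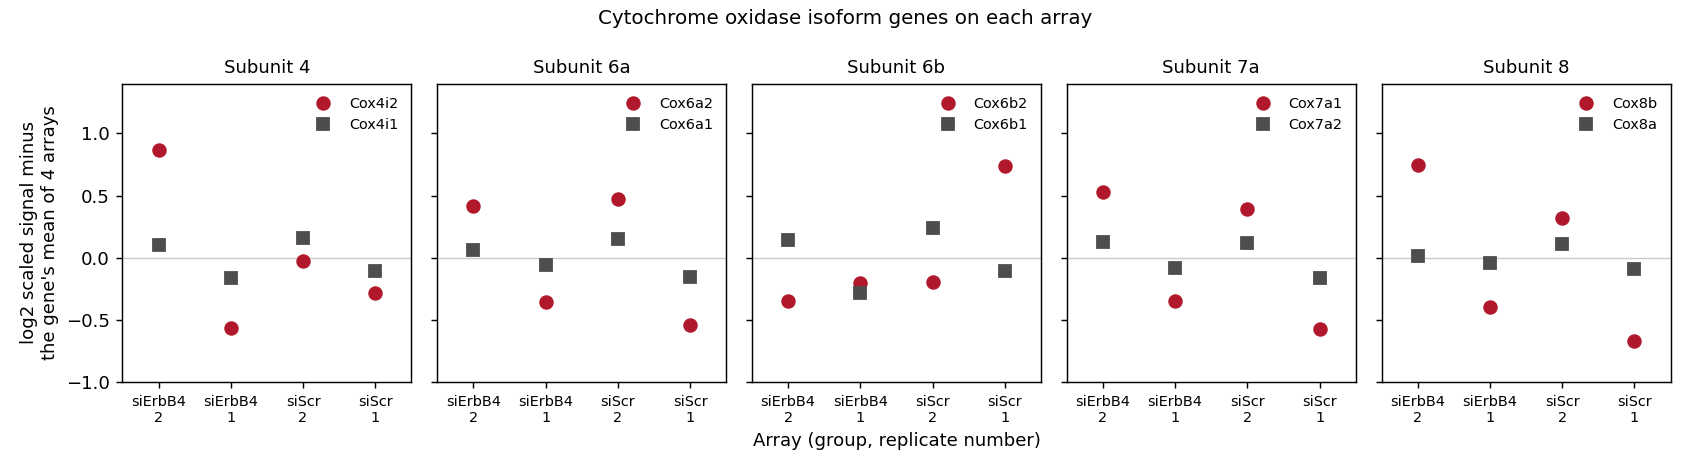
Each panel shows 1 subunit, with the log2 scaled signal of its restricted isoform (red circles) and ubiquitous isoform (grey squares) on each of the 4 arrays, after subtracting the gene's own mean. Cox6a2, Cox7a1 and Cox8b lie above 0 on both replicate 2 arrays and below 0 on both replicate 1 arrays, and the ubiquitous isoforms span 0.20 to 0.52.

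The ubiquitous partners were higher in replicate 2 as well, by less, and none of them passed the test. Cox6a1 was at 8.0 and 7.88 in siErbB4 replicates 2 and 1, against 8.09 and 7.79 in siScr replicates 2 and 1, a difference of 0.21 (SE 0.11, interval -0.084 to 0.50, adjusted limma p 0.349). Cox7a2 was at 5.55 and 5.35 in siErbB4, against 5.54 and 5.26 in siScr, in the same order of replicates, with a difference of 0.24 (SE 0.11, interval -0.036 to 0.53, adjusted limma p 0.265). The upper ends of these intervals lie below the lower ends for Cox6a2 and Cox7a1.

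Cox8a was at 7.51 and 7.45 in siErbB4 replicates 2 and 1, against 7.61 and 7.41 in siScr replicates 2 and 1. Its difference of 0.13 (interval -0.16 to 0.42, adjusted limma p 0.539) was the smallest among the 10 genes, and its second probe gave 0.16. Cox4i1, the main form of the largest nuclear subunit, stood at 7.46 and 7.20 in siErbB4 and at 7.52 and 7.25 in siScr in that order of replicates. It differed by 0.27 in each group, with an adjusted limma p of 0.231. Cox6b1, the form in most tissues of the subunit that joins the monomers on the intermembrane side, differed by 0.39 (interval 0.067 to 0.71, adjusted limma p 0.157), with 4.22 and 3.80 in siErbB4 and 4.31 and 3.97 in siScr. All 5 ubiquitous genes were higher in replicate 2 without overlap, beside 29.4% of all features. Under quantile normalization, which reshapes the brightest probes, the difference was 0.0025 for Cox8a and 0.049 for Cox6a1. Probe brightness differed within pairs, with processed signals of 418 to 1054 for Cox8b and 165333 to 171834 for Cox8a. For Cox6a2 and Cox7a2, which are of different pairs, they were 29499 to 54336 and 37971 to 44082. The part of brightness in the contrast between muscle and ubiquitous isoforms was not tested.

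**Figure D2:**
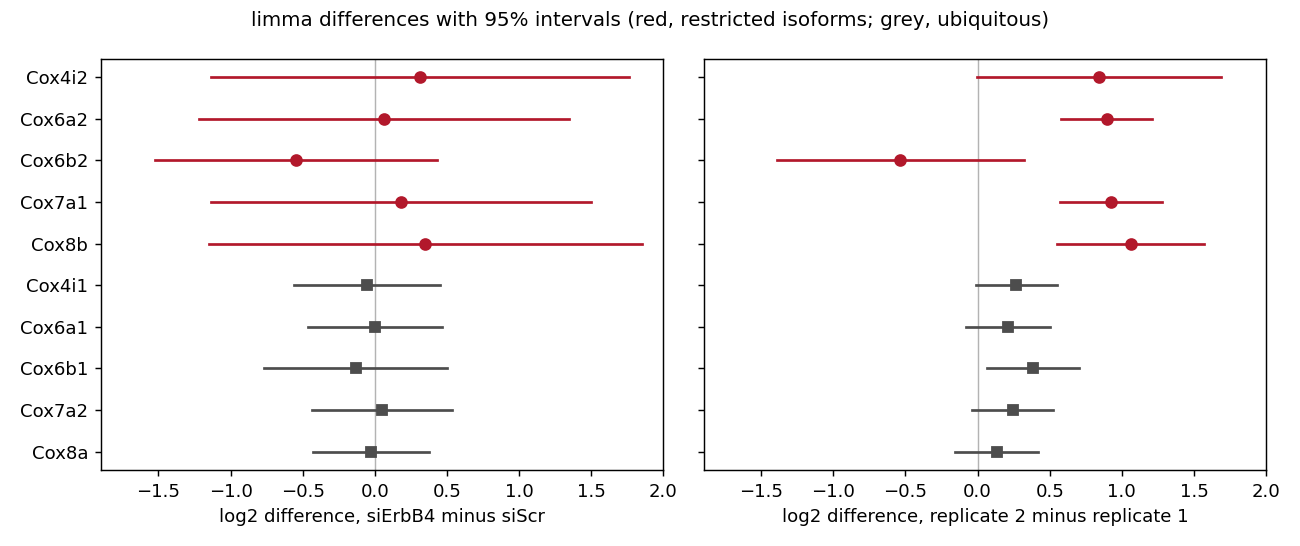
Points are limma log2 differences with 95% intervals for the 5 restricted isoforms (red) and the 5 ubiquitous isoforms (grey), siErbB4 minus siScr on the left and replicate 2 minus replicate 1 on the right. On the left all 10 intervals include 0, and on the right those of Cox6a2, Cox7a1, Cox8b and Cox6b1 lie above 0.

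The restricted forms that are not those of muscle each had a single array apart from the rest. Cox4i2, the lung and low oxygen form, stood at -1.02 and -2.45 in siErbB4 replicates 2 and 1, against -1.92 and -2.18 in siScr replicates 2 and 1. Both replicate 2 arrays lay above both replicate 1 arrays, by 1.43 within siErbB4 and by 0.25 within siScr. One array, siErbB4 replicate 2, was high, and the other 3 lay between -2.45 and -1.92. The processed signal of Cox4i2 was 461 in siErbB4 replicate 2, against 172 in siErbB4 replicate 1, 232 in siScr replicate 2 and 219 in siScr replicate 1. The replicate number difference was 0.84 (SE 0.32, adjusted limma p 0.219), with 0.39 without siErbB4 replicate 2 and 1.29 without siScr replicate 2.

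Cox6b2, the testis form, was the only 1 of the 10 genes with a lower mean in replicate 2. It stood at 0.91 and 1.05 in siErbB4 replicates 2 and 1, against 1.06 and 1.99 in siScr replicates 2 and 1. Here siScr replicate 1 was high and the other 3 arrays lay within 0.15 of each other. The replicate number difference was -0.53 (SE 0.33, interval -1.39 to 0.32, adjusted limma p 0.408), and -0.065 without siScr replicate 1. Without siErbB4 replicate 1 it was -1.01 and passed the test (adjusted limma p 0.0421). Of 7 male germ cell markers 4 were tested, and their summed scaled signal was 0.146 and 0.130 in siErbB4 replicates 2 and 1, against 0.156 and 0.119 in siScr replicates 2 and 1. Their part in the Cox6b2 value was not tested.

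The balance between the isoforms of a subunit was then compared between arrays, as the log2 signal of the restricted isoform minus that of the ubiquitous one on the same array. Because different probes differ in brightness, the balance is no ratio of RNA amounts, and only its change between arrays is read. Cox6a2 over Cox6a1 was at -2.14 and -2.80 in siErbB4 replicates 2 and 1, against -2.18 and -2.89 in siScr replicates 2 and 1. Cox7a1 over Cox7a2 was at -1.46 and -2.13 in siErbB4, against -1.58 and -2.27 in siScr, in the same order. Cox8b over Cox8a was at -7.35 and -8.42 in siErbB4, against -7.87 and -8.65 in siScr.

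In all 3 muscle pairs the balance was higher in replicate 2, by 0.68 for subunit 6a, 0.68 for subunit 7a and 0.93 for subunit 8. These correspond to 1.61, 1.6 and 1.91 times the replicate 1 balance. For subunits 6a and 7a, same-numbered arrays of the groups lay within 0.14 of each other. For Cox6b2 over Cox6b1 the balance was lower in replicate 2, by 0.92 on the log2 scale, and for Cox4i2 over Cox4i1 the arrays overlapped, with a difference of 0.57. The Cox4i2 balance differed by 0.098 without siErbB4 replicate 2, by 1.05 without siScr replicate 2 and by 0.32 with normexp. The Cox6b2 balance differed by -0.54 without siScr replicate 1. With 2 arrays on each side the smallest two-sided p of an exact permutation test is 0.333, and the 6a, 6b, 7a and 8 pairs reached it by replicate number. Adjusted over the 10 tests of balance, by replicate number and by siRNA, these exact p-values were 0.741.

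**Figure D3:**
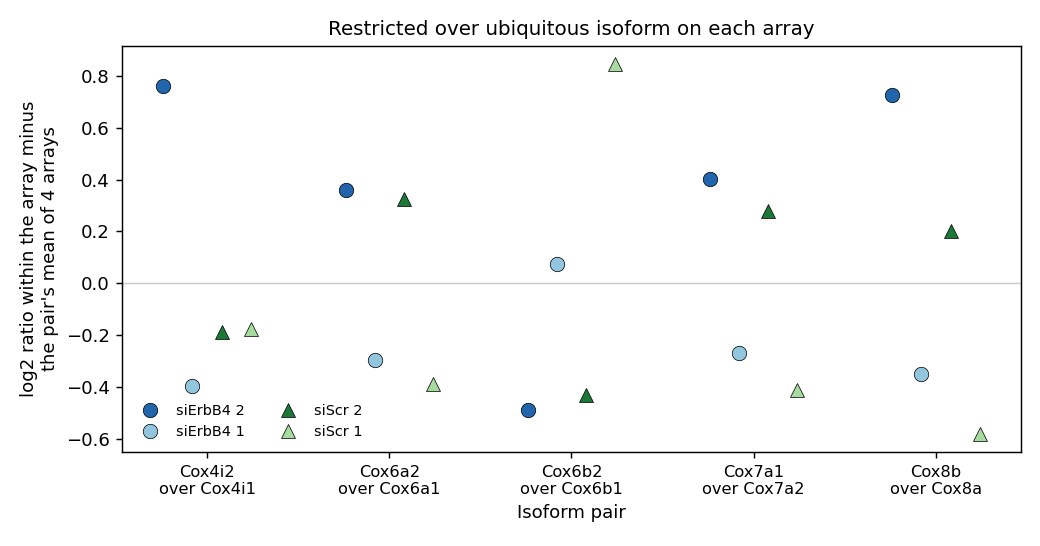
For each isoform pair the log2 ratio within the array, after subtracting the pair's mean of 4 arrays, is shown for the siErbB4 arrays (blue circles) and siScr arrays (green triangles), dark for replicate 2 and light for replicate 1. Dark symbols lie above light ones for subunits 6a, 7a and 8 and below them for subunit 6b, and for subunit 4 siErbB4 replicate 2 stands alone.

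The siRNA comparison of the same genes showed differences smaller than the larger SD of the 2 groups at all 10 genes, and none was called. With limma 0% of the 20726 features passed after adjustment, and 366 features, or 1.77%, had an unadjusted p under 0.05. Among the muscle isoforms the log2 difference, siErbB4 minus siScr, was 0.064 for Cox6a2 (SE 0.46, interval -1.22 to 1.35), 0.18 for Cox7a1 (SE 0.48, interval -1.14 to 1.5) and 0.35 for Cox8b (SE 0.54, interval -1.15 to 1.85). Each interval includes a 2-fold change in both directions, since the replicate number difference enters the error. All 3 turned negative without siErbB4 replicate 2 or without siScr replicate 1.

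Within same-numbered arrays, siErbB4 minus siScr was 0.43 in replicate 2 and 0.27 in replicate 1 for Cox8b, and 0.13 and 0.22 for Cox7a1. For Cox6a2 it was -0.052 in replicate 2 and 0.18 in replicate 1. The ubiquitous isoforms had narrower intervals. Their differences were -0.055 for Cox4i1 (interval -0.56 to 0.45), 0.00096 for Cox6a1 (-0.47 to 0.47), -0.13 for Cox6b1 (-0.77 to 0.50), 0.047 for Cox7a2 (-0.44 to 0.53) and -0.028 for Cox8a (-0.43 to 0.38).

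Cox4i2 gave 0.31 (SE 0.52, interval -1.14 to 1.76), with 0.90 between the replicate 2 arrays and -0.28 between the replicate 1 arrays. Cox6b2 gave -0.55 (SE 0.35, interval -1.52 to 0.43), and it was the only 1 of the 10 genes at which the groups did not overlap, beside 28.9% of all features and 15.9% separated with siErbB4 lower. Its difference was -0.15 between the replicate 2 arrays and -0.94 between the replicate 1 arrays, and -0.081 without siScr replicate 1. Every adjusted limma p of the 10 genes was 1.00. The isoform balances differed between siErbB4 and siScr by -0.41 to 0.38, with exact permutation p-values of 0.667 to 1 and overlap of the groups in all 5 pairs.

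Other genes of the enzyme gave a measure beside which the isoforms can be read. The list of subunits outside the isoform pairs followed here had 6 tested nuclear genes. All 6 were higher in replicate 2, by 0.30 to 0.43 (median 0.33), with 0 called. At each of them replicate 2 was higher without overlap, beside 29.4% of all features. Cox7c had a difference of 0.43 (SE 0.13) and Cox7b 0.34 (SE 0.11), both with adjusted limma p-values above the threshold (0.151 and 0.152). By siRNA these 6 genes had a median of 0.056. Assembly factors, which insert copper and haem or stabilise new subunits, had a median of 0.097 by replicate number over 20 tested, 13 higher and 7 lower, with 0 called. Among them Higd1a, a low oxygen responsive partner of the enzyme, had 0.48 (SE 0.11, adjusted limma p 0.0922) and Cox15, a haem A synthesis gene, 0.42 (SE 0.11, adjusted limma p 0.109).

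Muscle energy genes were higher in replicate 2, like the muscle isoforms. All 12 tested had this direction, with a median of 0.65, and 6 were called higher, beside 2.89% of all features. The list, like the others, was chosen with earlier results of these data known. At all 12 replicate 2 was higher without overlap, beside 29.4% of all features. Myoglobin, Mb, which stores oxygen in muscle, stood at 4.13 and 2.76 in siErbB4 replicates 2 and 1, against 3.87 and 2.78 in siScr replicates 2 and 1, a difference of 1.23 (SE 0.13, adjusted limma p 0.0249). The muscle phosphoglycerate mutase gene Pgam2 had 1.01 (SE 0.11, adjusted limma p 0.0244), the muscle glycogen phosphorylase gene Pygm 0.89 (SE 0.13, 0.0384) and the calcium-binding gene Hrc 0.66 (SE 0.11, 0.0467). Slc25a4, the muscle adenine nucleotide carrier gene, chosen after its values were seen, had the smallest difference of the list at 0.18.

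Their ubiquitous counterparts were also mostly higher in replicate 2, 9 of 10, beside 53% of all features, with a median of 0.43. Of them 1 was called higher, beside 2.89% of all features. The called gene was Pdk1, a low oxygen responsive kinase of pyruvate dehydrogenase, at 1.66 (SE 0.25, adjusted limma p 0.0384). The balance of muscle over ubiquitous form, taken as for the isoforms, varied in direction between energy gene pairs. Its replicate number difference was 1.83 for Ckmt2 over Ckmt1, 1.19 for Cpt1b over Cpt1a and 0.59 for Pgam2 over Pgam1. It was 0.25 for Eno3 over Eno1, 0.23 for Pygm over Pygb, -0.27 for Slc25a4 over Slc25a5 and -0.60 for Pfkm over Pfkl. Of 18 mitochondrial regulators 14 were higher, beside 53% of all features, and 2 were called higher, beside 2.89%. These were the orphan receptor gene Esrrg (0.67, SE 0.11, adjusted limma p 0.0446) and the coactivator gene Ppargc1b (0.68, SE 0.12, 0.0492). By siRNA 0 genes of these lists were called.

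Cell type markers differed by replicate number too. For the marker counts that follow, 2.89% of all features were called higher in replicate 2 and 2.34% called lower. Of all features, 29.4% were higher and 26% lower in replicate 2 without overlap, and 53% had a higher mean. Of 13 cardiomyocyte markers 12 were higher in replicate 2, 3 of them called, with differences from -0.076 to 1.06 and a median of 0.49. Their summed scaled signal was 2073 and 1632 in siErbB4 replicates 2 and 1, against 2202 and 1679 in siScr replicates 2 and 1. Such sums, of any marker list, add different probes. The brightest probes weigh most, so a sum can move against the median of its list. Of 10 fibroblast markers 8 were lower in replicate 2, 3 of them called, with a median of -1.33 and summed signals of 7.40 and 22.7 in siErbB4 replicates 2 and 1, against 9.63 and 39.3 in siScr replicates 2 and 1. Of 9 tested smooth muscle and pericyte markers 7 were lower, with 3 called lower and 1 called higher, and sums of 235 and 426 in siErbB4 replicates 2 and 1, against 242 and 538 in siScr replicates 2 and 1. Endoderm and liver markers were higher in replicate 2 at 5 of 5 tested, 4 without overlap and 1 called (Afp), with differences of 0.070 to 1.36 and a median of 0.65, above the cardiomyocyte median. Their summed signal was 53.4 and 50.1 in siErbB4 replicates 2 and 1, against 47.5 and 40.8 in siScr replicates 2 and 1, and Apoa1 was well above background on 0 arrays. Of 5 tested endothelial markers 4 were lower (median -0.46, 0 called), with sums of 3.52 and 3.37 in siErbB4 replicates 2 and 1, against 4.57 and 3.48 in siScr replicates 2 and 1. Of 4 tested macrophage markers 2 were higher and 2 lower (median -0.85), with Lyz2 called higher, and sums of 1.88 and 1.20 in siErbB4 replicates 2 and 1, against 2.12 and 1.5 in siScr replicates 2 and 1. Of 8 pluripotent stem cell markers 3 were higher and 5 lower, with 0 called, a median of -0.058 and sums of 29.0 and 38.8 in siErbB4 replicates 2 and 1, against 25.8 and 24.5 in siScr replicates 2 and 1. Whether the cells were purified is not given. In total RNA, fewer cells of a type and less RNA per cell cannot be told apart. The part of these markers in the isoform differences was not tested.

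Of the 4 tested skeletal muscle markers 2 were higher and 2 lower in replicate 2, with 0 called. The differences of these 4 were -0.49 to 0.84, with a median of -0.10. Of 7 brown adipocyte markers 5 were tested, with a median of -0.010, and Cidea was called higher. Their summed signal was 1.49 and 1.03 in siErbB4 replicates 2 and 1, against 1.44 and 1.08 in siScr replicates 2 and 1. Adipoq was well above background on 1 array and Plin1 on 0. The 7 spike-in probes well above background on all arrays differed by a median of 0.082 between replicate numbers, on the same scale.

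**Figure D4:**
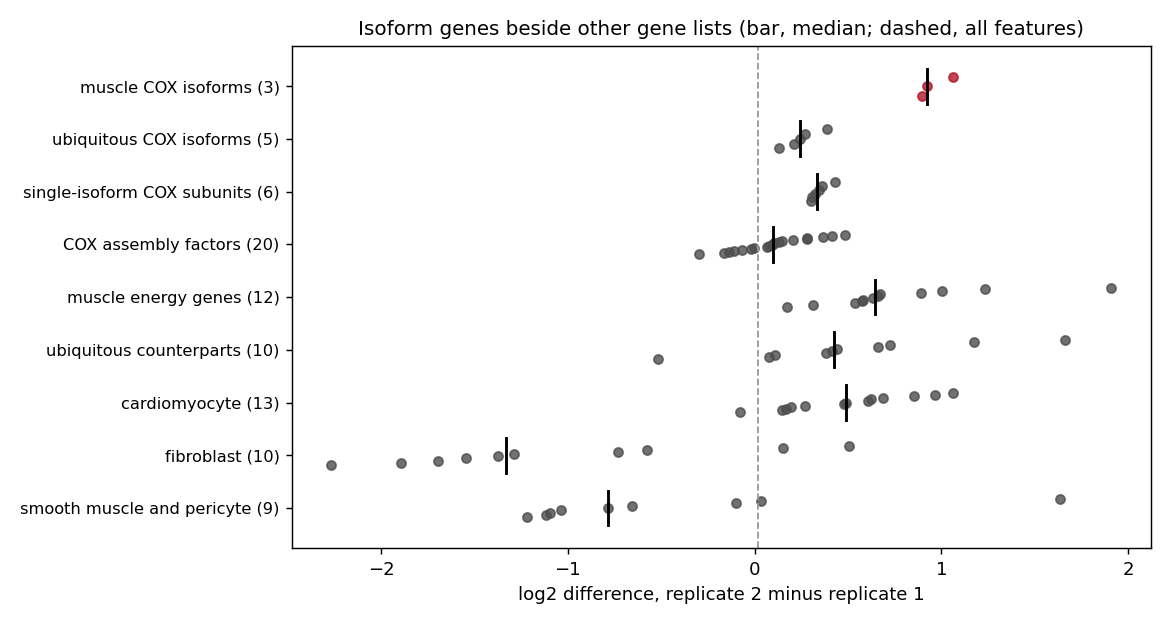
Points are the log2 differences, replicate 2 minus replicate 1, of single genes, with black bars for list medians, the number of genes in brackets and a dashed line for the median of all features. The 3 muscle isoforms lie at 0.89 to 1.06, the ubiquitous isoforms at 0.13 to 0.39, and most fibroblast markers below 0.

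Genes with the most similar values over the 4 arrays were found by the Euclidean distance between log2 values after subtracting each gene's mean, among 14983 other named genes, for the isoforms whose arrays spanned at least 1. For Cox6a2 these were Cks2, Homer2 and Chtf18, at distances of 0.036 to 0.054, and 213 genes lay within 0.25 of it. For Cox7a1 they were Polq, Gm14625 and Tacc3, at 0.050 to 0.063, with 198 genes within 0.25. For Cox8b they were Ppp1r3c, Lmod3 and Hr, at 0.060 to 0.12, with 46 within 0.25. Cox6b2 was closest to Cdsn, Dmpk and Cd300ld (0.019 to 0.091), and Cox4i2 to Frmd3, Smim5 and Ak4 (0.17 to 0.23), where only these 3 genes lay within 0.25. With 4 arrays such likeness describes these samples alone.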

How the data were processed

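Intensity values were read from the authors' deposited Agilent files, made with Feature Extraction 10.7.1.1 per the file headers and the submitters' processing notes; processed signals were background-subtracted and detrended within each array, not scaled between arrays. The authors' deposited log2 value table matched the scale used here, log2 of signal over the 75th percentile (largest difference 0.0033 over 39018 single-spot probes). Flags for background, saturation and outliers are other deposited columns, per the file headers. Of 43020 non-control spots (39429 probes) outlier spots were dropped, 0 were saturated, and spots of a probe were averaged. Percentiles were 878 to 989. Probes detected above background throughout 1 or both groups were kept (25690), named through RefSeq accessions (GRCm38.p6 table), with the brightest probe per gene, giving 20726 features. The array annotation names another build, so the only coordinates given are those of the promoter windows, on GRCm38.p6. Probe sequences were not used, so near-identical copies could not be told apart.

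limma 3.58.1 (R 4.3.3, lmFit and eBayes, Benjamini-Hochberg over all features, threshold 0.05) fitted siErbB4 against siScr, and replicate 2 against 1, each with 2 residual degrees of freedom. It was tested on simulated data. Named genes are the 10 members, up to 4 called genes per direction of each pathway list (otherwise the 2 with the lowest p), and the 3 nearest genes of members spanning at least 1. Members and lists were chosen with earlier results of these data known. Alternatives were normexp, quantile and median scaling, other filters, probe means, the deposited table, arrays left out and the replicate block.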

Additional observations from a re-analysis of the deposited data

How the results depend on the processing

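The replicate number difference of the muscle isoforms kept its direction in all 13 alternatives, and so did every balance by replicate number in the 12 run for it. Where the replicate numbers did not overlap, leaving out an array could not reverse the direction. The other filters, probe means and the replicate block left the muscle isoform differences unchanged, so these alternatives do not test it. The 1085 features called by replicate number (600 higher, 485 lower) became 1879 with normexp (1030 and 849) and 0 without the filter (0 and 0). With the replicate block, which here has the siRNA as a term, 1522 were called, 741 of them lower. They ranged from 0 to 1540 with arrays left out (0 to 774 higher, 0 to 766 lower), falling to 73 without siErbB4 replicate 2 and to 0 without siScr replicate 1 or siScr replicate 2. By siRNA 0 were called in all 13, the replicate block included. Same-numbered arrays share only a number in the labels. Their deviations from the group means correlated at 0.679 across features. Cox8b passed also on probes detected on all 4 arrays (adjusted limma p 0.0395), on both arrays of a replicate number (0.0499) and with the replicate block (0.0250), and Cox6b2 passed without siErbB4 replicate 1 (difference -1.01, 0.0421). Leaving out an array leaves fewer samples and dropping the filter adds dim features, but the cause of these changes was not tested.

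By siRNA 21 of 130 isoform values and 8 of 60 balances changed sign. Cox6a1 became -0.020 with normexp and -9.4e-05 with the deposited table. Under quantile normalization Cox4i1 became 0.0086 and Cox8a 0.048. Left-out arrays gave ranges of -0.19 to 0.079 (Cox4i1), -0.40 to 1.03 (Cox4i2), -0.15 to 0.15 (Cox6a1), -0.44 to 0.57 (Cox6a2), -0.35 to 0.080 (Cox6b1), -0.31 to 0.66 (Cox7a1), -0.093 to 0.19 (Cox7a2), -0.13 to 0.074 (Cox8a) and -0.22 to 0.92 (Cox8b). The balances ranged from -0.22 to 0.95 (subunit 4), -0.29 to 0.42 (6a), -1.05 to 0.23 (6b), -0.21 to 0.48 (7a) and -0.16 to 0.92 (8).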
